A study of Arabidopsis thaliana with 12 samples.

Results

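The Aux/IAA repressors and the auxin-conjugating GH3 enzymes of Arabidopsis thaliana were followed across rosettes that lack LSD1, rosettes with surplus LSD1 and wild-type rosettes. The set was chosen by locus: 29 Aux/IAA genes and 6 GH3 genes, 35 of the 27416 gene models in the count table, and all 35 had a row. The transcripts were measured in 12 mRNA sequencing libraries, 3 biological replicates for each of 4 groups, all in the Ws-0 (Wassilewskija) accession. The groups were the lsd1-1 mutant, a line carrying 35S:LSD1-GFP (LSD1 fused to green fluorescent protein), a dexamethasone-treated line carrying 35S:LSD1-GR (LSD1 fused to the glucocorticoid receptor domain, here LSD1-GR+DEX), and wild type (WT). The 35S promoter of cauliflower mosaic virus is active in most plant tissues. Plants were 2 weeks old and grew on MS medium with 16 h of light at 22 °C by day and 18 °C by night. LSD1-GR seedlings were grown on nylon mesh and moved to medium with 30 µM dexamethasone, and the other lines received no treatment. No untreated LSD1-GR, dexamethasone-treated WT or GFP-only group was analysed here, so transgene, dexamethasone and transfer cannot be told apart in LSD1-GR+DEX. The sources used here do not give the number of independent transgenic lines, the number of plants in a sample, the hour of harvest or the length of the dexamethasone treatment.

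Auxin acts by removing repressors. Aux/IAA proteins sit on auxin response factors (ARFs) and hold their target genes silent; auxin glues an Aux/IAA protein to a receptor of the TIR1/AFB family, which marks the repressor for destruction. Many Aux/IAA genes and the GH3 genes studied here are themselves switched on by ARFs, so they form feedback loops: new Aux/IAA protein restores repression, and GH3 enzymes join indole-3-acetic acid, the main auxin, to amino acids and so lower the free hormone. The classical auxin response element read by ARFs has the letters TGTCTC, and TGTCGG is a version that ARFs bind tightly.

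The 250 bases before the annotated gene start are shown for 5 genes on which the results turn, taken from the TAIR10.1 reference assembly by NCBI RefSeq. GH3.2 and GH3.3 are shown because both were higher than WT in LSD1-GR+DEX, IAA3 and IAA17 because these neighbours moved in opposite directions there, and IAA16 because it is an abundant repressor that was lower. The reference is the Col-0 genome, so bases that differ in Ws-0 are not seen. All are written 5′ to 3′ on the gene's own strand, and capitals mark TGTCTC or TGTCGG or the G-box CACGTG on either strand. The windows are GH3.2 at chr4:17579368-17579617 (+), GH3.3 at chr2:9866563-9866812 (-), IAA16 at chr3:1290892-1291141 (-), IAA3 at chr1:1129690-1129939 (-) and IAA17 at chr1:1135828-1136077 (+).
GH3.2: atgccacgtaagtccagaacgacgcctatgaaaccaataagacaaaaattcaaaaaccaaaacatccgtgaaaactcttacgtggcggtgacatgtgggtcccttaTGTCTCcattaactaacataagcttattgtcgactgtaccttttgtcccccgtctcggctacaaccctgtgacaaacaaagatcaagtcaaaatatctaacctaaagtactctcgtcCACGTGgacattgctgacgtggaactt
GH3.3: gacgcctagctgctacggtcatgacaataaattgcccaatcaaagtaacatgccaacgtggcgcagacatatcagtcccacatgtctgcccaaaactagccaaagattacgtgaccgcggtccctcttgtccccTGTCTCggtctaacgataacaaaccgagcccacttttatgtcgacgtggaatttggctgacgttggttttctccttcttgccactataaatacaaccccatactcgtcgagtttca
IAA16: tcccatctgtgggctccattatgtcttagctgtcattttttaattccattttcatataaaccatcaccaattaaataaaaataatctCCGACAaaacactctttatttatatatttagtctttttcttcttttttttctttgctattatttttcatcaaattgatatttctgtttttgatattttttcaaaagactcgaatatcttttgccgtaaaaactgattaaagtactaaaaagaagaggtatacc
IAA3: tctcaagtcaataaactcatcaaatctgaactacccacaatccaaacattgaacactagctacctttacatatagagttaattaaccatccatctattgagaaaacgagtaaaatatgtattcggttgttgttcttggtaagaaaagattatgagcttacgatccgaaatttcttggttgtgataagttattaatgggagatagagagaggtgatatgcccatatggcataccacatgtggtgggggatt
IAA17: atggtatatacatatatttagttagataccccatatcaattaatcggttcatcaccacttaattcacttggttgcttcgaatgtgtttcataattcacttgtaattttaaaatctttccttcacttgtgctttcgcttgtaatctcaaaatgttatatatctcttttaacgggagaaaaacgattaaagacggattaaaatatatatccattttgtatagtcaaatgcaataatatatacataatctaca

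The windows of GH3.2 and GH3.3 each hold 1 TGTCTC, and that of GH3.2 also holds 1 CACGTG. The IAA16 window holds 1 TGTCGG, read here as its reverse complement, and the IAA3 and IAA17 windows hold none of these motifs. Searched on both strands of the same window, TGTCTC was present in 12 of 35 promoters of the set (34.3%), against 10.91% of all 26709 promoters. TGTCGG was present in 6 of 35 (17.1%), against 4.16% of all promoters. CACGTG was present in 5 of 35 (14.3%), against 6.58% of all promoters. Of the 15 genes called in at least 1 comparison, GH3.2, GH3.3, GH3.5, IAA8 and IAA19 carry TGTCTC. Of the same 15, IAA12, IAA16 and IAA27 carry TGTCGG, and GH3.2, IAA7 and IAA19 carry CACGTG. Of the 11 tested genes that were never called, IAA1, IAA5 and IAA6 carry TGTCTC, and IAA1, IAA5 and IAA13 carry TGTCGG. A match is a description of letters and says nothing of binding.

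Library totals lay between 9781360 and 11503432 counts. LSD1 itself averaged 0.094 ± 0.093 CPM in lsd1-1, 2351 ± 305 CPM in LSD1-GFP and 178 ± 36.8 CPM in LSD1-GR+DEX, against 23.6 ± 1.9 CPM in WT (SD, n = 3 each; CPM is the count scaled to library size, with TMM, edgeR's correction for library composition). All 4 rosette leaf markers and all 8 root markers had counts in every group. The summed root markers reached 1110 to 1290 CPM in lsd1-1, 1341 to 1982 CPM in LSD1-GFP and 2605 to 2861 CPM in LSD1-GR+DEX, against 1052 to 1321 CPM in WT. The summed leaf markers reached 29510 to 34820 CPM in lsd1-1, 46820 to 55110 CPM in LSD1-GFP and 27930 to 30310 CPM in LSD1-GR+DEX, against 30150 to 39250 CPM in WT. Replicate 2 of LSD1-GR+DEX and replicate 3 of WT each stood apart from the other 2 libraries of their group, with a chi-square per degree of freedom of at least 11.4 and 10 against 2.21 and 3.35 between the other libraries. In the comparisons with WT, genes whose call changes without either library are named as such where they are described.

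IAA7, IAA16, IAA8, IAA9 and IAA2 were the most abundant transcripts of the set in all 4 groups. Per kilobase of the deposited transcript model, IAA7 stood highest in every group, at 194 ± 10.9 CPM per kb in lsd1-1, 171 ± 28.5 in LSD1-GFP and 152 ± 3.71 in LSD1-GR+DEX, against 201 ± 37.4 in WT. IAA7 (AXR2) is a repressor whose stabilised mutant form makes dwarf, auxin-resistant plants. In WT it was followed by IAA16 at 150 ± 19.1, IAA8 at 132 ± 1.34, IAA9 at 120 ± 5.18 and IAA2 at 107 ± 27.8 CPM per kb. Within this order the ranges of mean ± SD overlapped for IAA7 and IAA16, for IAA16 and IAA8, and for IAA9 and IAA2. In LSD1-GFP those of IAA7 and of IAA8, at 143 ± 2.03, overlapped as well. IAA7, IAA16, IAA8 and IAA9 together held 53.6% ± 0.19 of the per-kilobase Aux/IAA total in lsd1-1, 55.9% ± 0.71 in LSD1-GFP and 50.5% ± 0.73 in LSD1-GR+DEX, against 54.4% ± 1.34 in WT (SD, n = 3 each). IAA9, whose tomato counterpart controls leaf shape and fruit set, differed little between the groups: it averaged 233 ± 5.58 CPM in lsd1-1, 238 ± 2.5 in LSD1-GFP and 247 ± 4.86 in LSD1-GR+DEX, against 234 ± 10.1 in WT, and it was called in none of the 5 comparisons.

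**Figure D1:**
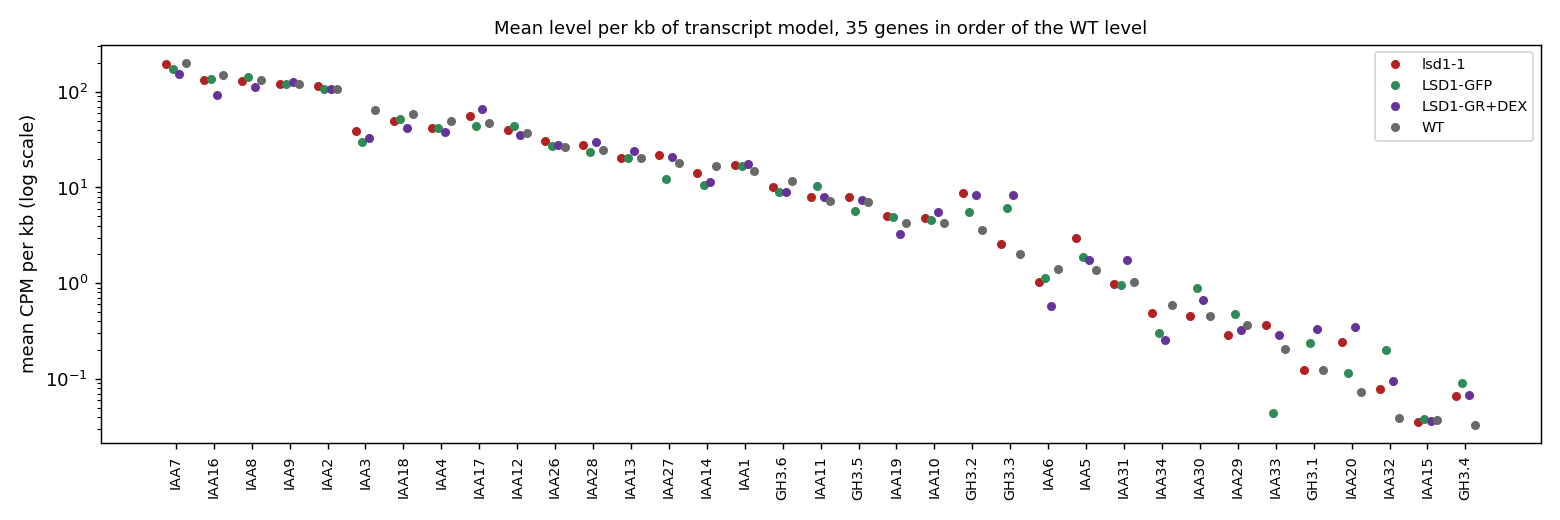
Mean level in CPM per kb of transcript model (vertical axis, log scale) of the 35 Aux/IAA and GH3 genes, ordered along the horizontal axis by their WT mean; each colour is 1 group, n = 3 libraries. IAA7 leads in every group with 152 to 201 CPM per kb, and the points of IAA3, GH3.2 and GH3.3 spread visibly between the groups.

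At the other end, 9 of the 35 genes did not pass the low-count filter. IAA15 had 0 or 1 count per library and 4 in all, GH3.4 had 0 to 4 and 15 in all, and IAA20 had 0 to 6 and 22 in all. IAA32 (0 to 4), IAA33 (0 to 4), IAA34 (0 to 10), IAA29 (2 to 8), IAA30 (2 to 12) and GH3.1 (0 to 11) were also low, with 21 to 69 counts in all. The remaining 26 genes, 22 Aux/IAA and 4 GH3, entered the tests.

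Across the 4 groups, 12 of the 26 tested genes (46.2%) differed at an adjusted p below 0.05 (edgeR quasi-likelihood F test, Benjamini-Hochberg adjustment over all genes tested), where 49.5% of all 19487 tested genes did. The 12 were IAA3, IAA8, IAA11, IAA12, IAA14, IAA16, IAA17, IAA18, IAA27, GH3.2, GH3.3 and GH3.5. As a share the set was thus close to the background of the whole transcriptome, and the values below describe single genes. The comparisons with WT share the same 3 WT libraries, so their values stand side by side and their likeness is not counted as a result. In bulk rosettes, fewer cells of a type and less RNA per cell cannot be told apart.

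Of the called genes of the set, GH3.3 had the largest difference from WT in LSD1-GFP and in LSD1-GR+DEX. In lsd1-1, GH3.2 was the only gene of the set called against WT. GH3.2 (BRU6, AT4G37390) conjugates indole-3-acetic acid to amino acids. Its 3 libraries read 17.2, 21.4 and 18.0 CPM in lsd1-1, 11.0, 16.6 and 8.84 CPM in LSD1-GFP and 24.6, 11.5 and 18.3 CPM in LSD1-GR+DEX, against 8.29, 8.62 and 6.71 CPM in WT. Every library of the other 3 groups was above every WT library. GH3.2 rose 2.40-fold in lsd1-1 over WT (log2 difference 1.26, standard error (SE) 0.27, adjusted p = 0.0141) and 2.31-fold in LSD1-GR+DEX over WT (log2 1.21, SE 0.27, adjusted p = 0.00474). In LSD1-GFP against WT the log2 difference was 0.63 (SE 0.28, adjusted p = 0.117). The lsd1-1 call was lost when WT replicate 1, WT replicate 3 or lsd1-1 replicate 2 was left out, with log2 differences between 1.16 and 1.33 over all 6 such fits and an adjusted p of at most 0.0715.

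GH3.3 (AT2G23170), a close relative with the same reaction, was higher than WT in both overexpressing lines. It read 5.33, 7.33 and 3.83 CPM in lsd1-1, 16.1, 12.2 and 10.2 CPM in LSD1-GFP and 21.7, 11.9 and 19.9 CPM in LSD1-GR+DEX, against 3.76, 4.85 and 4.35 CPM in WT. Libraries of both overexpressing lines lay above all WT and all lsd1-1 libraries, whereas lsd1-1 and WT overlapped. A test of LSD1-GR+DEX against lsd1-1 was not run. GH3.3 rose 2.96-fold in LSD1-GFP over WT (log2 1.57, SE 0.28, adjusted p = 0.000957) and 4.12-fold in LSD1-GR+DEX over WT (log2 2.04, SE 0.27, adjusted p = 8.62e-05). In lsd1-1 against WT the log2 difference was 0.34 (SE 0.30, adjusted p = 0.59). Tested directly, GH3.3 was lower in lsd1-1 than in LSD1-GFP (log2 -1.22, SE 0.27, adjusted p = 0.0044), while LSD1-GR+DEX and LSD1-GFP differed by a log2 of 0.48 (SE 0.24, adjusted p = 0.147).

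GH3.5 (WES1), which conjugates both auxin and salicylic acid, fell in LSD1-GFP. It read 16.9, 19.9 and 19.4 CPM in lsd1-1, 13.3, 14.0 and 12.5 CPM in LSD1-GFP and 18.4, 16.4 and 17.8 CPM in LSD1-GR+DEX, against 16.2, 16.4 and 17.6 CPM in WT. The LSD1-GFP libraries lay below those of every other group. It was lower in LSD1-GFP than in WT (log2 -0.33, SE 0.10, adjusted p = 0.0243), and higher than in LSD1-GFP both in LSD1-GR+DEX (log2 0.41, adjusted p = 0.00746) and in lsd1-1 (log2 0.49, adjusted p = 0.00254). The call against WT was lost without WT replicate 3, LSD1-GFP replicate 1 or LSD1-GFP replicate 3.

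GH3.6 (DFL1), whose excess makes short hypocotyls, was not called in the 5 comparisons. It read 20.8, 23.5 and 26.0 CPM in lsd1-1, 18.7, 21.0 and 22.0 CPM in LSD1-GFP and 26.8, 14.1 and 21.3 CPM in LSD1-GR+DEX, against 22.0, 30.1 and 29.3 CPM in WT. Its log2 difference from WT was -0.40 in LSD1-GFP (adjusted p = 0.136), and -0.41 with a call when these 2 groups were fitted alone (adjusted p = 0.045). In LSD1-GR+DEX it was -0.39 (adjusted p = 0.13), -0.20 without LSD1-GR+DEX replicate 2 (adjusted p = 0.329), and -0.62 with a call without LSD1-GR+DEX replicate 1 (adjusted p = 0.0217). Per kilobase, GH3.6 made up 34.2% ± 3.0 of the total of the 6 GH3 genes in lsd1-1, 33.8% ± 5.08 in LSD1-GFP and 26.4% ± 1.34 in LSD1-GR+DEX, against 47.3% ± 3.55 in WT. GH3.3 made up 8.77% ± 2.44 in lsd1-1, 22.9% ± 4.96 in LSD1-GFP and 24.9% ± 1.78 in LSD1-GR+DEX, against 8.27% ± 0.34 in WT (SD, n = 3 each). GH3.2 made up 29.5% ± 1.53 in lsd1-1, 20.9% ± 5.08 in LSD1-GFP and 24.5% ± 2.72 in LSD1-GR+DEX, against 14.9% ± 2.64 in WT. In each of the other 3 groups GH3.6 therefore took a smaller part of these transcripts than in WT, with no overlap between libraries. Replicate 2 of LSD1-GR+DEX had the lowest value of its group for GH3.2, GH3.3 and GH3.6 alike, and without it the LSD1-GR+DEX over WT log2 differences were 1.42 for GH3.2 and 2.24 for GH3.3.

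**Figure D2:**
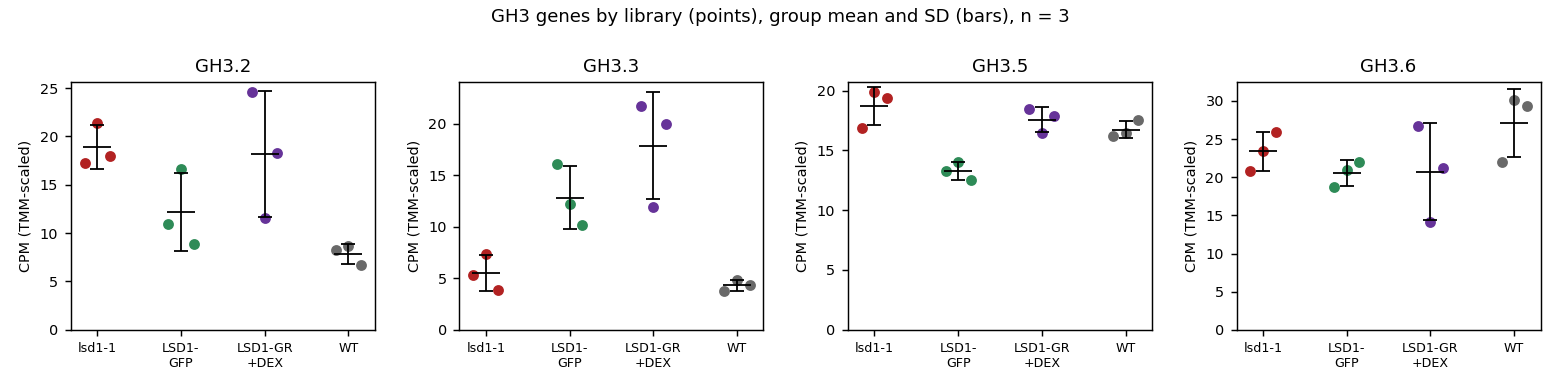
Level in TMM-scaled CPM (vertical axes from 0) of the 4 tested GH3 genes in each library; points are libraries, the wide tick and bar give the group mean and SD (n = 3). GH3.2 is above WT in all 9 other libraries, GH3.3 lies between 10.2 and 21.7 CPM in the overexpressing lines and at most at 7.33 CPM elsewhere, and GH3.5 dips in LSD1-GFP to 12.5 to 14.0 CPM.

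Among the repressors, IAA3 (SHY2, AT1G04240) had the largest drop among those called. IAA3 links auxin to cytokinin and to light and holds back growth when stabilised. It read 60.3, 35.6 and 42.8 CPM in lsd1-1, 43.9, 32.6 and 31.2 CPM in LSD1-GFP and 38.7, 45.0 and 32.9 CPM in LSD1-GR+DEX, against 85.7, 84.8 and 59.2 CPM in WT. Both overexpressing lines lay below every WT library, and lsd1-1 replicate 1 overlapped WT replicate 3. IAA3 fell in LSD1-GFP (log2 -1.09, SE 0.22, adjusted p = 0.00286) and in LSD1-GR+DEX (log2 -0.98, SE 0.21, adjusted p = 0.0043), each against WT. In lsd1-1 against WT the log2 difference was -0.73 (SE 0.21, adjusted p = 0.0577). Same-numbered libraries of lsd1-1 and WT deviated together, a pairing read from these data and not from the labels. With the replicate number as a block in a fit of all 12 libraries, the difference was -0.73 with adjusted p = 0.0157. Without WT replicate 3 it was -0.89, with adjusted p = 0.0385. In the order per kilobase IAA3 ranked 6 in WT and 10 in each of the other groups.

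IAA3 is overlapped for 640 bp on the opposite strand by AT1G04230, and 36.32% of its 50-base windows occur in that gene too. That neighbour had 121 to 134 counts per library in lsd1-1, 110 to 132 in LSD1-GFP and 110 to 141 in LSD1-GR+DEX, against 111 to 137 in WT, and its log2 differences from WT were 0.08, 0.09 and 0.10 with no call. The kit kept strand, but the sources used here do not name the strand setting of the counting, so reads of the pair may have been shared. IAA10 has the same kind of overlap, of 619 bp with AT1G04105, and IAA13 one of 1176 bp with AT2G33300, which had 0 to 3 counts.

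IAA17 (AXR3, AT1G04250), a repressor best known from root hair and gravity defects of its stabilised mutant, lies 6388 bp from IAA3 on chromosome 1 and is read in the opposite direction, with 1 annotated gene between them. It read 70.3, 78.2 and 70.9 CPM in lsd1-1, 61.1, 53.1 and 57.3 CPM in LSD1-GFP and 92.5, 80.8 and 87.9 CPM in LSD1-GR+DEX, against 60.6, 73.5 and 53.7 CPM in WT. LSD1-GR+DEX lay above every other library. IAA17 rose in LSD1-GR+DEX over WT (log2 0.48, SE 0.10, adjusted p = 0.00286), where IAA3 fell, and was higher than in LSD1-GFP both in LSD1-GR+DEX (log2 0.61, adjusted p = 0.000544) and in lsd1-1 (log2 0.36, adjusted p = 0.0222). The neighbouring pairs IAA14 with IAA1 and IAA2 with IAA7 are also read away from each other, with gaps of 10732 and 12510 bp. In LSD1-GR+DEX against WT, IAA14 had a log2 difference of -0.57 beside 0.23 for IAA1, and IAA7 one of -0.40 beside 0.01 for IAA2. Of these 4 genes, IAA14 and IAA7 were called there.

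IAA14 (SLR), which blocks lateral root initiation when stabilised, read 24.6, 27.9 and 21.7 CPM in lsd1-1, 23.4, 15.6 and 16.2 CPM in LSD1-GFP and 23.9, 15.8 and 19.0 CPM in LSD1-GR+DEX, against 28.3, 33.1 and 25.7 CPM in WT. Both overexpressing lines lay below WT, and lsd1-1 overlapped it. IAA14 fell in LSD1-GFP (log2 -0.66, SE 0.18, adjusted p = 0.0131) and in LSD1-GR+DEX (log2 -0.57, SE 0.18, adjusted p = 0.0217). Each of the calls was lost in 3 of the 6 fits that left out a library, those without WT replicate 2 and those without replicate 2 or 3 of the line itself. Without LSD1-GR+DEX replicate 2 the adjusted p in that line was 0.058.

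IAA16 and IAA18 fell in LSD1-GR+DEX and behaved alike over the libraries. IAA16, a broadly expressed repressor, read 281, 268 and 254 CPM in lsd1-1, 281, 303 and 251 CPM in LSD1-GFP and 185, 201 and 181 CPM in LSD1-GR+DEX, against 314, 336 and 260 CPM in WT. The LSD1-GR+DEX libraries lay below all others. IAA16 fell there against WT (log2 -0.68, SE 0.10, adjusted p = 0.000149) and against LSD1-GFP (log2 -0.56, adjusted p = 0.000728). IAA18, whose stabilised form disturbs embryo patterning, read 91.2, 92.2 and 83.6 CPM in lsd1-1, 95.3, 93.3 and 86.9 CPM in LSD1-GFP and 76.4, 76.8 and 70.9 CPM in LSD1-GR+DEX, against 104, 106 and 102 CPM in WT. All 9 other libraries lay below WT, those of LSD1-GR+DEX lowest. IAA18 fell in LSD1-GR+DEX against WT (log2 -0.48, SE 0.07, adjusted p = 0.000141) and against LSD1-GFP (log2 -0.30, adjusted p = 0.00471). Against WT its log2 difference was -0.23 in lsd1-1 (adjusted p = 0.0612) and -0.18 in LSD1-GFP (adjusted p = 0.0657). With the replicate block these became calls, at adjusted p = 0.0116 for lsd1-1 and 0.0198 for LSD1-GFP. Of all pairs of the tested genes, IAA16 and IAA18 had the highest correlation of log2 levels over the 12 libraries (Pearson r = 0.926), a description in which the points share groups and libraries.

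IAA7 and IAA8 were also lower in LSD1-GR+DEX than in WT. IAA7 read 204, 208 and 198 CPM in LSD1-GR+DEX, against 300, 294 and 211 CPM in WT (log2 -0.40, SE 0.13, adjusted p = 0.0291). IAA8 read 185, 183 and 181 CPM in LSD1-GR+DEX, against 216, 212 and 215 CPM in WT (log2 -0.23, SE 0.07, adjusted p = 0.0222). These are modest shifts with no overlap: the IAA7 call was lost in 4 and the IAA8 call in 2 of 6 fits that left out a library. IAA8 was lower in LSD1-GR+DEX than in LSD1-GFP as well (log2 -0.35, adjusted p = 0.00184). In LSD1-GFP against WT, IAA7 passed the threshold when WT replicate 3 was left out (log2 -0.38, adjusted p = 0.0181).

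**Figure D3:**
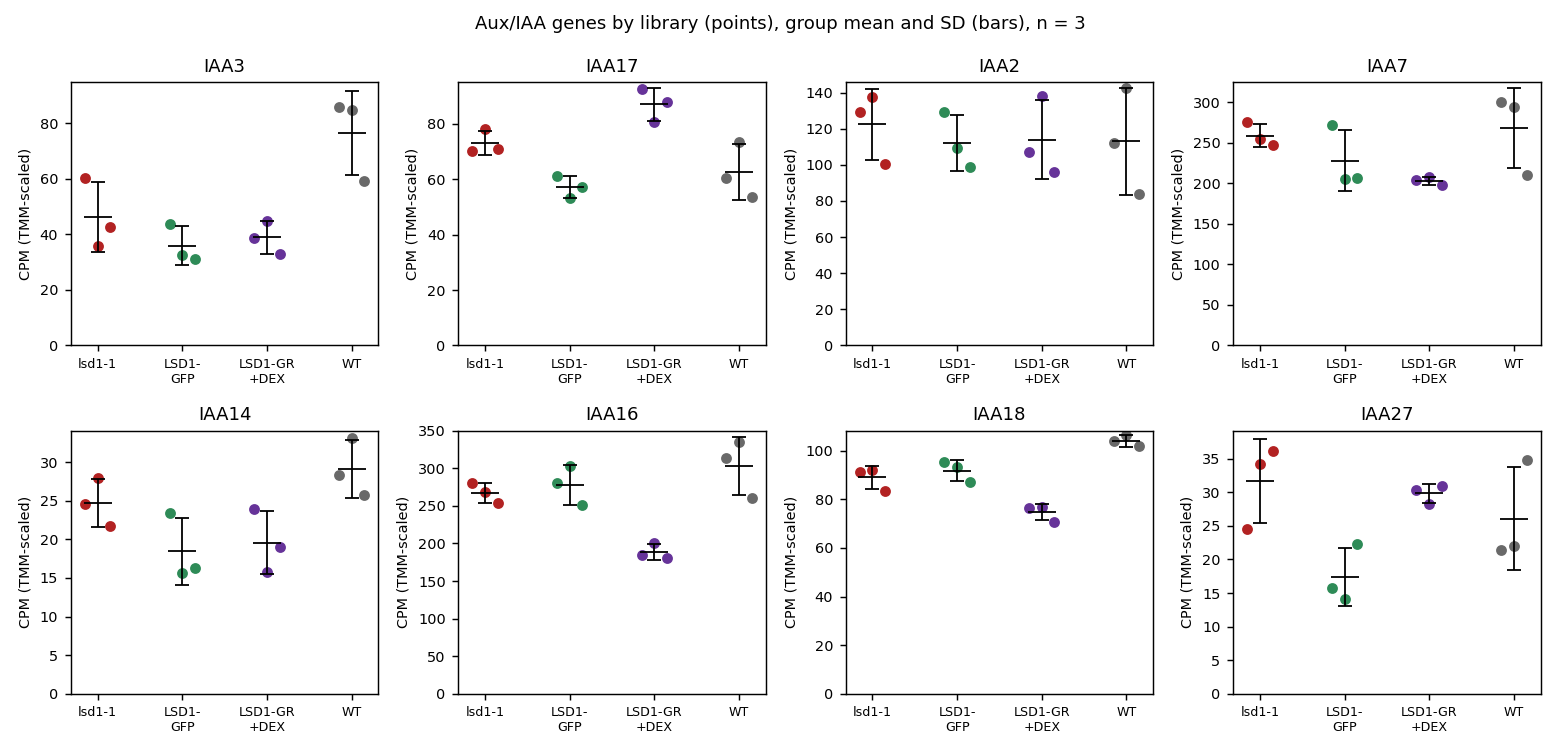
Level in TMM-scaled CPM (vertical axes from 0) of 8 Aux/IAA genes in each library; points are libraries, the wide tick and bar give the group mean and SD (n = 3). IAA3 is below WT in both overexpressing lines, IAA16 and IAA18 are lowest and IAA17 is highest in LSD1-GR+DEX, and IAA2, the neighbour of IAA7, overlaps between all groups.

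IAA27 (PAP2) separated LSD1-GFP from lsd1-1 and LSD1-GR+DEX. It read 24.5, 34.2 and 36.2 CPM in lsd1-1, 15.8, 14.1 and 22.3 CPM in LSD1-GFP and 30.3, 28.3 and 31.0 CPM in LSD1-GR+DEX, against 21.4, 22.0 and 34.9 CPM in WT. WT replicate 3 was far above the other WT libraries. IAA27 was higher than in LSD1-GFP in lsd1-1 (log2 0.87, SE 0.22, adjusted p = 0.0112) and in LSD1-GR+DEX (log2 0.78, SE 0.22, adjusted p = 0.0159). In LSD1-GFP against WT the log2 difference was -0.58 (adjusted p = 0.0642), and with the replicate block adjusted p = 0.00669. The gene whose levels were most like those of IAA27 within the set was GH3.5 (Pearson r = 0.822 over 12 libraries).

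IAA11 and IAA12 rose slightly in LSD1-GFP. IAA12 (BDL), the partner of the response factor MONOPTEROS in the embryo, read 59.8, 56.9 and 60.9 CPM in LSD1-GFP, against 52.5, 51.0 and 48.5 CPM in WT (log2 0.23, SE 0.07, adjusted p = 0.0295). IAA11 read 9.76, 12.5 and 11.9 CPM in LSD1-GFP, against 6.75, 8.71 and 8.5 CPM in WT (log2 0.51, SE 0.15, adjusted p = 0.0172). Neither overlapped WT, but the call of IAA12 was lost in 5 and that of IAA11 in 3 of 6 fits that left out a library. Without WT replicate 3 the adjusted p of IAA12 was 0.0902. IAA12 also missed the threshold with DESeq2 (adjusted p = 0.0502), with no low-count filter (0.0607) and when the 2 groups were fitted alone (0.071). In LSD1-GR+DEX against LSD1-GFP, IAA12 was lower (log2 -0.32, adjusted p = 0.00358), as was IAA19 (MSG2), a repressor in tropic growth (log2 -0.59, adjusted p = 0.0433). IAA28, a repressor of lateral roots, was higher there (log2 0.37, adjusted p = 0.0371). Its libraries overlapped, with 33.8 to 48.3 CPM in LSD1-GR+DEX and 29.4 to 34.7 CPM in LSD1-GFP. IAA5, a rapid auxin-response gene, read 2.91, 1.76 and 2.23 CPM in lsd1-1, against 0.868, 1.71 and 0.661 CPM in WT, without overlap but also without a call (log2 1.07, adjusted p = 0.178).

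Over the 5 comparisons, 15 of the 26 tested genes were called at least once and 11 never. Those 11 were IAA1, IAA2, IAA4, IAA5, IAA6, IAA9, IAA10, IAA13, IAA26, IAA31 and GH3.6. The share of all genes called at least once over the same comparisons was not counted, so the 15 are no result about the set. IAA4, an early auxin-response gene, read 65.3, 55.2 and 49.9 CPM in lsd1-1, 57.0, 62.0 and 50.1 CPM in LSD1-GFP and 47.3, 57.2 and 48.3 CPM in LSD1-GR+DEX, against 76.1, 75.1 and 49.7 CPM in WT. WT replicate 3 lay with the other groups, and without it IAA4 passed the threshold as lower in LSD1-GFP (log2 -0.42, adjusted p = 0.0183) and in LSD1-GR+DEX (log2 -0.57, adjusted p = 0.00283), where all 12 libraries gave -0.25 and -0.40. It also passed in LSD1-GR+DEX without LSD1-GR+DEX replicate 2 (log2 -0.51, adjusted p = 0.0338). IAA28 passed it as higher in LSD1-GR+DEX against WT without LSD1-GR+DEX replicate 2 (log2 0.39, adjusted p = 0.0153), where all libraries gave 0.29. IAA6 (SHY1), with 0.284 to 1.61 CPM over all 12 libraries, and IAA31, with 0.661 to 1.81 CPM, were low throughout. At this low level IAA6 reached 0.381 to 0.673 CPM in LSD1-GR+DEX, against 1.13 to 1.35 CPM in WT. It was not called there in the main fit, but passed the threshold when these groups were fitted alone (log2 -1.28, adjusted p = 0.0272).

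By comparison, 1 of 26 tested genes was called in lsd1-1 against WT, GH3.2 (3.85%, higher), where 8.3% of all tested genes were called, 5.19% higher and 3.1% lower. With the replicate block the count was 3, with IAA3 and IAA18 lower beside GH3.2 higher. The block also raised the count over all 19487 tested genes, to 2889, 1750 higher and 1139 lower. In LSD1-GFP against WT, 6 of 26 were called (23.1%), 3 higher and 3 lower, where 29.1% of all genes were, 15.5% higher and 13.6% lower. With the replicate block the count was 8, 3 higher and 5 lower, with IAA18 and IAA27 added. In LSD1-GR+DEX against WT, 9 of 26 were called (34.6%), 3 higher and 6 lower, where 36% of all genes were, 19.3% higher and 16.7% lower. With a library left out the split moved to 4 higher and 3 lower (without LSD1-GR+DEX replicate 3) and to 5 higher and 4 lower (without WT replicate 2). In the fit of all libraries all 6 lower ones were Aux/IAA genes, and the higher ones were GH3.2, GH3.3 and IAA17. Aux/IAA genes are 22 of the 26 tested. Of these 22, 31.8% were called, and their median log2 difference was 0.03. LSD1-GR+DEX against LSD1-GFP gave 9 calls, 4 higher and 5 lower, beside 32.8% of all genes, 16.5% higher and 16.2% lower. Without LSD1-GR+DEX replicate 2 it gave 12, 7 higher and 5 lower, where 6165 of all 19690 tested genes were called, 3090 higher and 3075 lower. In lsd1-1 against LSD1-GFP there were 4 calls, 3 higher and 1 lower, beside 26.5% of all genes, 12.8% higher and 13.6% lower, and the replicate block gave 6. The other counts in this paragraph that come from alternative fits stand without the share of all genes. Libraries of the groups did not overlap for 4 of the 26 genes in lsd1-1 against WT, where this held for 26.6% of all genes. They did not overlap for 9 in LSD1-GFP against WT (42.6% of all genes) and for 14 in LSD1-GR+DEX against WT (47% of all genes). Against LSD1-GFP they did not overlap for 12 in LSD1-GR+DEX (45.4% of all genes) and for 10 in lsd1-1 (41.6% of all genes). The median log2 difference from WT over the 26 genes was 0.10 in lsd1-1, -0.05 in LSD1-GFP and 0.06 in LSD1-GR+DEX, beside medians of -0.01, 0.00 and 0.01 over all genes.

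**Figure D4:**
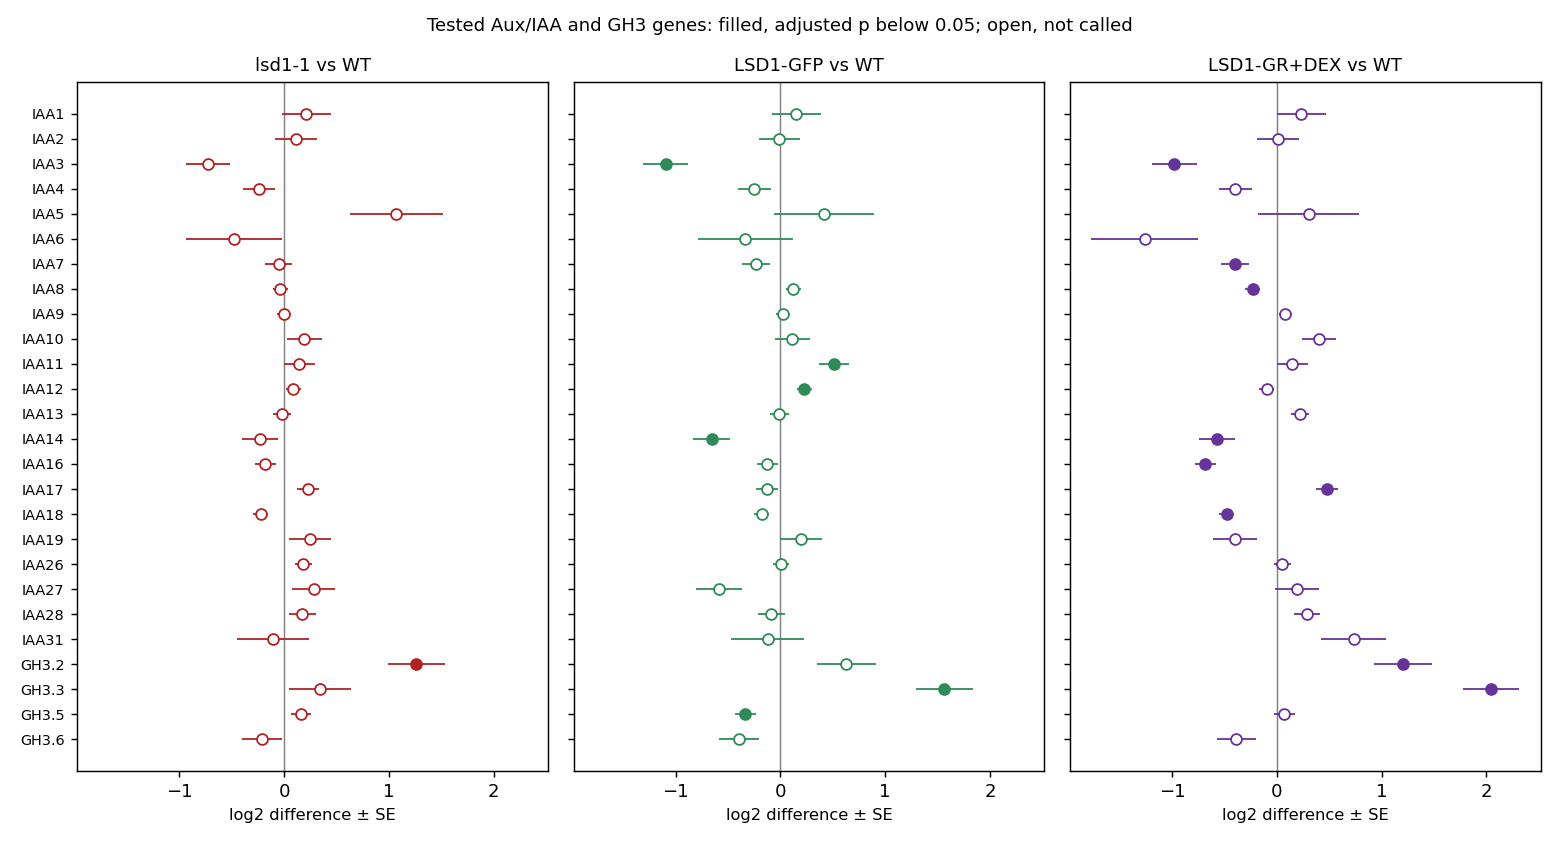
Log2 difference from WT (horizontal axes) with its SE for the 26 tested genes in lsd1-1, LSD1-GFP and LSD1-GR+DEX; filled points have an adjusted p below 0.05 and open points do not. The filled points number 1, 6 and 9, and GH3.3 reaches the highest values, 1.57 in LSD1-GFP and 2.04 in LSD1-GR+DEX.

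Other genes of the pathway, grouped by role, were read beside the set, and their counts stand against the 8.3%, 29.1% and 36% of all genes called in lsd1-1, LSD1-GFP and LSD1-GR+DEX against WT. Of the 6 auxin receptors, 0 were called in lsd1-1 or LSD1-GFP against WT, and 2 were lower in LSD1-GR+DEX, TIR1 (log2 -0.37, adjusted p = 0.00172) and AFB1 (log2 -0.49, adjusted p = 0.0287). Of 15 response factors, 2 were lower in lsd1-1 and 3 were lower in LSD1-GR+DEX, and in LSD1-GFP 1 was higher and 1 lower. ARF19, an activator in lateral root formation, was among the lower ones in lsd1-1 (log2 -0.55, adjusted p = 0.0286) and in LSD1-GR+DEX (log2 -0.72, adjusted p = 0.0016). Of the 7 tested synthesis genes, 0 were called in lsd1-1, 2 were lower in LSD1-GFP, and 1 was higher and 1 lower in LSD1-GR+DEX. TAA1, the aminotransferase that begins auxin synthesis from tryptophan, was lower in LSD1-GFP (log2 -0.86, adjusted p = 0.000399) and in LSD1-GR+DEX (log2 -0.43, adjusted p = 0.0202).

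Of 7 tested genes for oxidation, glucosylation and conjugate hydrolysis, 1 was higher in lsd1-1, 1 was higher and 1 lower in LSD1-GFP, and 4 were higher in LSD1-GR+DEX (57.1% called). IAR3, an amidohydrolase that splits amino acid conjugates of auxin and of jasmonate, read 114, 122 and 98.7 CPM in lsd1-1, 76.8, 81.7 and 63.7 CPM in LSD1-GFP and 166, 230 and 147 CPM in LSD1-GR+DEX, against 43.1, 49.9 and 40.4 CPM in WT. It was above WT in all 9 libraries and rose by a log2 of 1.33 in lsd1-1 (adjusted p = 0.00033), 0.74 in LSD1-GFP (adjusted p = 0.00423) and 2.03 in LSD1-GR+DEX (adjusted p = 2.33e-06). ILL6, an amidohydrolase of jasmonate conjugates, was lower in LSD1-GFP (log2 -0.70, adjusted p = 0.00167) and higher in LSD1-GR+DEX (log2 0.91, adjusted p = 8.32e-05), each against WT.

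Of 15 tested transport genes, 1 was higher and 1 lower in lsd1-1, 1 higher and 3 lower in LSD1-GFP, and 2 higher and 5 lower in LSD1-GR+DEX. LAX1, an auxin uptake carrier, fell by a log2 of 0.63 in lsd1-1, 0.71 in LSD1-GFP and 0.82 in LSD1-GR+DEX against WT, with adjusted p = 0.00277, 0.000284 and 7.28e-05. ABCB4, a root auxin transporter, read 305, 426 and 288 CPM in LSD1-GR+DEX, against 32.5, 40.8 and 31.4 CPM in WT (log2 3.28, adjusted p = 1.01e-06). The root markers were higher there too: 5 of 7 tested were called higher in LSD1-GR+DEX and 0 in lsd1-1 or LSD1-GFP, and the part of root tissue in the values of ABCB4 and of the Aux/IAA genes was not tested.

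Of 19 SAUR genes, small growth genes that auxin induces within minutes, 1 was higher and 3 lower in lsd1-1, 5 were lower in LSD1-GFP and 7 were lower in LSD1-GR+DEX. The shares called were 21.1%, 26.3% and 36.8%, the last 2 near those of all genes. SAUR14 was lower in lsd1-1 (log2 -0.63, adjusted p = 0.00454), LSD1-GFP (log2 -0.96, adjusted p = 5.25e-05) and LSD1-GR+DEX (log2 -0.79, adjusted p = 0.000166). SAUR16 was lower as well, by a log2 of -0.66, -1.38 and -0.83 in the same order. The 7 GH3 genes outside the set gave 2 higher in lsd1-1, 3 higher and 1 lower in LSD1-GFP, and 1 higher and 2 lower in LSD1-GR+DEX. GH3.12 (PBS3), needed for salicylic acid synthesis, was higher in lsd1-1 (log2 1.98, adjusted p = 4.34e-06) and lower in LSD1-GR+DEX (log2 -1.02, adjusted p = 0.000336). GH3.11 (JAR1), which makes the active jasmonate conjugate, was higher in lsd1-1, LSD1-GFP and LSD1-GR+DEX by a log2 of 0.43, 0.40 and 0.33.

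**Figure D5:**
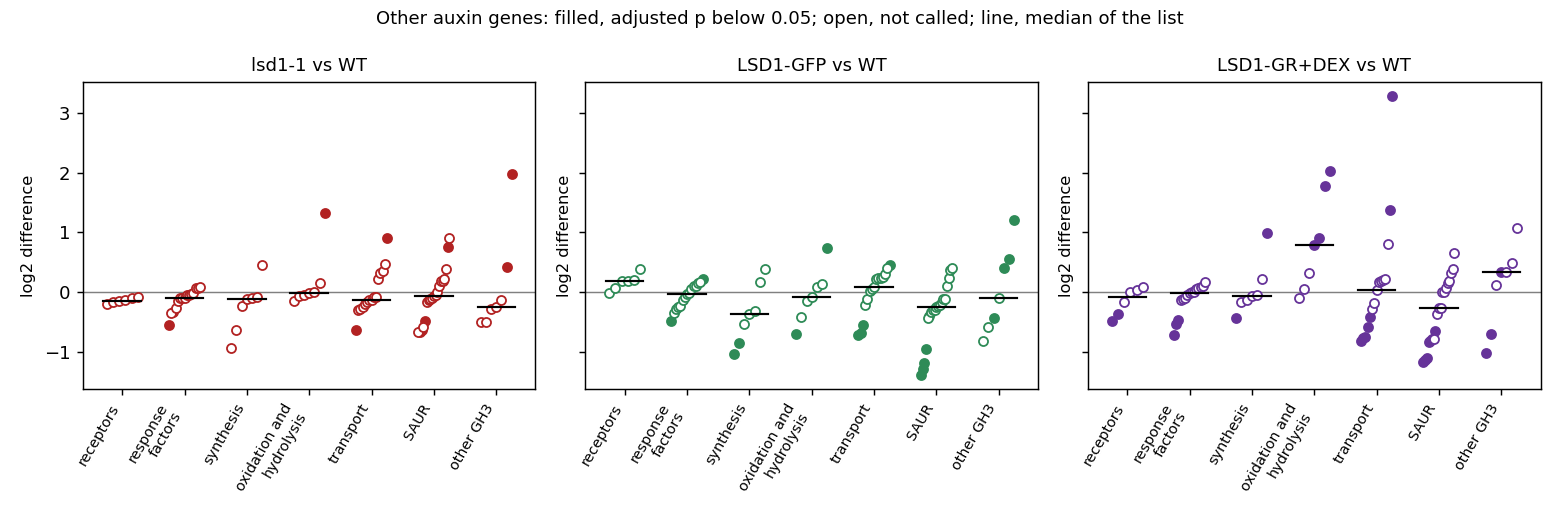
Log2 difference from WT (vertical axes) of the tested genes of 7 other auxin lists in lsd1-1, LSD1-GFP and LSD1-GR+DEX; filled points have an adjusted p below 0.05, open points do not, and black lines are list medians. ABCB4 (3.28) and IAR3 (2.03) stand highest in LSD1-GR+DEX among transport and hydrolysis genes, and called SAUR genes are below 0 in both overexpressing lines.

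Several light, clock and stress genes that can move with auxin genes also differed between the groups. Of 9 clock genes, 1 was higher in lsd1-1, 5 were higher and 2 lower in LSD1-GFP, and 3 were higher and 2 lower in LSD1-GR+DEX. The shares called against WT were 11.1%, 77.8% and 55.6% in that order, where 8.3%, 29.1% and 36% of all genes were called. GI, an afternoon clock gene, read 14.3, 28.7 and 15.1 CPM in lsd1-1, 42.6, 55.4 and 45.2 CPM in LSD1-GFP and 45.5, 68.6 and 46.4 CPM in LSD1-GR+DEX, against 4.34, 7.27 and 5.29 CPM in WT. Of 5 heat shock genes, 4 were higher in lsd1-1 (80%), 4 in LSD1-GFP (80%) and 5 in LSD1-GR+DEX (100%). HSP70 read 389, 1120 and 417 CPM in lsd1-1, 656, 1046 and 700 CPM in LSD1-GFP and 1693, 3422 and 1706 CPM in LSD1-GR+DEX, against 55.5, 180 and 65.9 CPM in WT. Replicate 2 had the highest GI and HSP70 of its group in all 4 groups. Of 10 phytochrome-interacting factors and shade-induced genes, 1 was lower in lsd1-1, 1 higher and 1 lower in LSD1-GFP, and 2 higher and 3 lower in LSD1-GR+DEX. Their shares called were 10%, 20% and 50%. The part of clock phase, heat response and light response in the Aux/IAA and GH3 values was not tested.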

How the data were processed

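RNA from 12 rosette samples, 3 biological replicates in each of 4 groups, was sequenced from stranded mRNA libraries, per the labels' protocols. Per the submitters' processing notes, reads were handled with HTSeq 0.6.1, GSNAP and Trimmomatic 0.30 on TAIR10; the sources used here do not state settings, strand or multi-mapping. The authors deposited raw counts per gene model, 27416 models, without normalization. From these, edgeR 4.0.16 in R 4.3.3 was used: filterByExpr left 19487 genes, TMM factors scaled the libraries, and 1 robust quasi-likelihood fit with group means gave two-sided F tests for 5 comparisons and for any difference among the 4 groups, adjusted by Benjamini-Hochberg over all genes and called at 0.05. The biological coefficient of variation was 11.2%. SE is the log2 difference over the square root of F. The fit was tested on simulated data. Sequences and gene positions came from TAIR10.1.

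Same-numbered libraries deviated together in every pair for lsd1-1 with WT (r = 0.253, 0.168 and 0.388), LSD1-GFP with WT (0.208, 0.224 and 0.469) and lsd1-1 with LSD1-GFP (0.202, 0.138 and 0.339), above the 0.1 set for pairing. Blocked values are therefore given for lsd1-1 and LSD1-GFP where they change a call against WT. For lsd1-1 with LSD1-GFP only the blocked count is given. The block was fitted to all 12 libraries, so its replicate effect was also set on LSD1-GR+DEX, which did not pair by this rule. The pairing comes from the data, as the labels do not say what a number shares. The named genes are all 35 members, LSD1 and, of each further list, up to 3 called genes with the lowest adjusted p in each comparison with WT; not all of these are named. GI and HSP70 were read as values in every library. Alternatives were RLE size factors, DESeq2 1.42.0, 2 other filters, fits of the 2 groups compared, the replicate block and leaving out each library. The members and lists were chosen with earlier results of these data known. No pair of libraries within a group was a duplicate, and pairs across groups were not checked.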

Additional observations from a re-analysis of the deposited data

How the results depend on the processing

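No called difference from WT changed direction under any alternative run. Of 78 log2 differences from WT, 17 changed sign under some alternative, none of them called in either fit. One such was IAA5 in LSD1-GR+DEX (0.30, and -0.33 without LSD1-GR+DEX replicate 2). In the comparisons with LSD1-GFP only the counts of called genes were followed, and single genes were not checked under the alternatives. The count of Aux/IAA and GH3 genes called in lsd1-1 against WT, 1 as reported, was 3 with DESeq2, 2 when 3 libraries had to reach 5 CPM and 3 with the replicate block, and 0 to 2 when each library was left out in turn (0 without WT replicate 1 or lsd1-1 replicate 2, 2 without WT replicate 2 or lsd1-1 replicate 1). Over all genes, lsd1-1 against WT gave 1617 calls, 2889 with the replicate block and 764 to 1375 with a library left out. LSD1-GFP against WT gave 6 called genes of the set, and 3 to 6 with a library left out, 3 being without LSD1-GFP replicate 3. LSD1-GR+DEX and WT share replicate numbers without pairing by the 0.1 rule (r = 0.0355, 0.22 and 0.314); there the replicate block gave 12 calls in place of 9, adding IAA4, IAA6 and IAA13 at adjusted p = 0.0083, 0.0432 and 0.0473. For LSD1-GR+DEX against LSD1-GFP (r = -0.034, 0.123 and 0.328) it gave 11 in place of 9. Except where counts over all genes are printed, the counts of the set under alternatives stand here without the share of all genes. They are therefore no result about the set. The calls of IAA3 and GH3.3 in both overexpressing lines, and of IAA16, IAA17, IAA18 and GH3.2 in LSD1-GR+DEX, were kept in all 6 fits that left out a library and in the 6 other settings. LSD1-GR+DEX against WT gave 9, and 7 to 10 with a library left out; against LSD1-GFP it gave 9, and 7 to 12. RLE size factors moved none of 78 single-gene calls. DESeq2 and fits of 2 groups gave no value for the test over 4 groups. For all other losses and gains the cause was not tested. The 9 genes under the filter had at most 12 counts in a library; with no filter all 35 were tested, and 1, 5, 9, 8 and 4 were called in the 5 comparisons.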
